A study of Homo sapiens with 4 samples.

Results

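The BCL2 family decides at the mitochondrial outer membrane whether a cell dies by apoptosis, and 10 of its genes were followed here in THP-1, a monocytic cell line from a human acute myeloid leukaemia with the MLL-AF9 fusion gene. The genes were taken by symbol from a table of 27106 genes, and each of the 10 symbols matched 1 row. They comprised 4 guardians (BCL2, BCL2L1, MCL1, BCL2A1), 2 effectors (BAX, BAK1) and 4 BH3-only genes (BID, BCL2L11, PMAIP1, BBC3). Total RNA was sequenced from cells transfected with an antisense oligonucleotide, which is a short synthetic strand meant to lower the RNA it pairs with. In 2 libraries the oligonucleotide was non-targeting and in 2 it targeted SGOL1-AS1, a long noncoding RNA, and both groups are labelled day 5. The cells of both groups share the THP-1 background and the transfection, and the title of the study places them in a question on leukaemia cell survival. No second oligonucleotide against the target is labelled, so effects of this oligonucleotide and of the target cannot be told apart, nor can, in bulk RNA, fewer cells of a type and less RNA per cell.

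Guardians hold the effectors in check. BH3-only proteins are made or activated under stress and occupy the groove of the guardians, and some also engage the effectors directly. Freed BAX and BAK1 proteins (BAX and BAK) then form pores that release cytochrome c, which starts the caspase cascade. Partners are selective: NOXA, the product of PMAIP1, binds mainly MCL1 and the BCL2A1 product A1, whereas BIM (BCL2L11) and PUMA (BBC3) bind all main guardians. Acute myeloid leukaemia cells often depend on BCL2 or MCL1, which inhibitors of these proteins exploit.

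The stretches before the start of 3 members are shown, the BH3-only gene that passed the test below and the effector pair, whose fold changes lay side by side. RefSeq windows on GRCh38.p14 were found for 9 of the 10 members, and the 250 bases before each RefSeq start were searched on both strands. Printed bases end before the GENCODE 29 gene start where that lies further upstream, which leaves out 48 bases for PMAIP1, 60 for BAX and 17 for BAK1. They run 5′ to 3′ on the gene's own strand, at chr18:59899746-59899947 (plus) for PMAIP1, chr19:48954625-48954814 (plus) for BAX and chr6:33580294-33580526 (minus) for BAK1. Capitals mark the cAMP-response element core TGACGT, the GC box GGGCGG, an SP1 motif, and the E-box CACGTG, a MYC and USF motif, on either strand.
PMAIP1: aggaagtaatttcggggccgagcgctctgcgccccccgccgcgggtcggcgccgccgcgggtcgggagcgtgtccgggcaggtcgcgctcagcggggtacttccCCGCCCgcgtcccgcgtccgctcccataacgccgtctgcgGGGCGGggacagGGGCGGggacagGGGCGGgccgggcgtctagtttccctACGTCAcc
BAX: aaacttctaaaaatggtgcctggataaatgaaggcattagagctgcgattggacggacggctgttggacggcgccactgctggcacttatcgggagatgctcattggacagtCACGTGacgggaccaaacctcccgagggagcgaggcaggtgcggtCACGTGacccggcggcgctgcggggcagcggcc
BAK1: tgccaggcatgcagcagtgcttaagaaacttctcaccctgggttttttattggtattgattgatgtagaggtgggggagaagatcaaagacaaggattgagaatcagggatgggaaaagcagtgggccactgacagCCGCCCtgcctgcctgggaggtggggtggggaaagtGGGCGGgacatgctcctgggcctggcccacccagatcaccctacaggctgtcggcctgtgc

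The PMAIP1 window held 4 GC boxes, with first bases at -146, -106, -94 and -82 from the RefSeq start, and 1 cAMP-response element core at -56. Of 35114 RefSeq windows of 250 bases, 42.6% held a GC box and 7.1% the cAMP-response element core. BH3-only genes that did not pass held GC boxes too, 4 in a BID window and 3 in the BCL2L11 window. The BAX window held 4 E-boxes, at -138, -93, -45 and -14, of which the later pair lies in the bases not printed, and 6.35% of all windows held an E-box. It also held 1 GC box, at -52, likewise in the bases not printed, and the BAK1 window held 2, at -114 and -78. A loose NF-kB-like motif (GGG, any 5 bases, then CC), which can overlap itself and GC boxes, was found at 3 places in the PMAIP1 window, at 2 in the BAK1 window and at 0 in the BAX window, against 54.4% of all windows with at least 1. A match of letters is a description of the window and does not show a bound site.

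Gene reads summed to 50855150 and 51851314 per non-targeting library and to 48558537 and 41435922 per knockdown library. Values are normalized reads, that is reads divided by 1 size factor per library by the authors. The knockdown columns were assigned by elimination and are numbered in column order, so every direction below rests on that assignment. The target does not check it: SGOL1-AS1, listed under its newer symbol SGO1-AS1, had 24 and 21 reads without and 12 and 17 with the targeting oligonucleotide (log2 fold change -0.48 ± 0.37 SE; limma, adjusted p = 0.555). All 12 listed monocytic markers were tested. Their summed level ran from 105445 to 111574 in the non-targeting and from 101838 to 106905 in the knockdown libraries. CEBPA and LYZ made up most of that sum. LYZ was higher in the knockdown, at 37332 and 36975 against 39733 and 40116, without passing (limma, adjusted p = 0.261). Of the 12 markers, 10 had a negative log2 fold change, as had 10179 of all 19398 tested genes. By limma 6 of them had an unadjusted p under 0.05, against 17.2% of all tested genes. CD4 and FCGR1A passed the threshold and were lower, 2 of 12 against 3.4% of all tested genes. CD14 and CD68 were low, with non-targeting means of 107 and 19.5 normalized reads. Of 8 T, B and NK cell markers 5 had a row, summing to 1672 to 1922 and 1617 to 1819, of which NKG7 made up 1277 to 1485 per library. The single erythroid and megakaryocyte marker with a row, ITGA2B, lay between 27.8 and 45.6, and 4 of 6 epithelial and fibroblast markers summed to 389 to 441 and 396 to 424. No marker of these other cell types passed the threshold, and the part of cell makeup in the results was not tested.

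MCL1, the short-lived guardian, was by far the most abundant member, and the other members spread over a wide range below it. Levels of different genes were compared per kilobase (kb) of exon, from the merged exons of GENCODE 29. On this scale MCL1 stood at 4510 ± 215 (SD, n = 2) normalized reads per kb in the non-targeting libraries, 2.93 times the next member, BAK1, at 1539 ± 41.2. BCL2 followed at 1388 ± 2.56, BAX at 1144 ± 23.7 and PMAIP1 at 985 ± 98.5. BID (614 ± 10.9), BCL2L1 (601 ± 8.3) and BCL2L11 (598 ± 12.8) formed a cluster within which the 4-library ranges overlapped. BCL2A1 was at 132 ± 26.5 and BBC3 was lowest, at 54.2 ± 1.54, so MCL1 stood 83.2 times above BBC3. Among guardians, BCL2 was 2.31 times BCL2L1 and 10.5 times BCL2A1. Ranges over the 4 libraries also overlapped between BAK1 and BCL2 and between BAX and PMAIP1, and these neighbours are not separated beyond the spread. Merged exons include ones these cells may not use, which lowers the value of a gene with many, such as BCL2 with 11.8 kb.

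**Figure D1:**
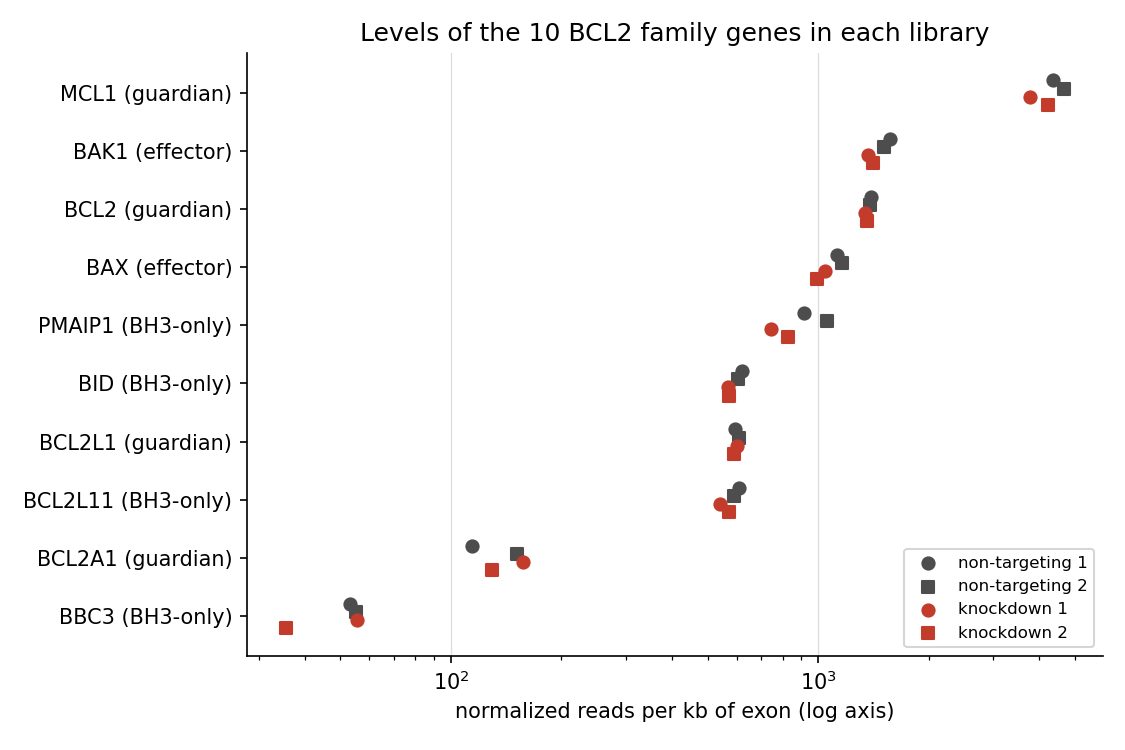
Normalized reads per kb of exon (log axis) for each of the 10 genes in the 2 non-targeting (grey) and 2 knockdown (red) libraries, ordered by the non-targeting mean. MCL1 lies above all others in every library, BID, BCL2L1 and BCL2L11 lie together near 600, and BCL2A1 and BBC3 lie lowest.

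PMAIP1 fell in the knockdown libraries. BAX and the guardian MCL1 stood at -0.17 each on the log2 scale without passing the test, while BCL2 and BCL2L1 stayed close to their non-targeting level. PMAIP1 alone passed the threshold of 0.05 on the Benjamini-Hochberg adjusted p over 19398 genes (limma on log2(normalized reads + 1)), a test that called 3.4% of all genes lower and 0.851% higher. Both knockdown values lay below both non-targeting values in 7 of 10 members (PMAIP1, BAX, BAK1, BID, BCL2L11, MCL1 and BCL2), against 25.1% of all tested genes, and above them in 0 of 10, against 21.6%. By role these 7 were 3 of 4 BH3-only genes, 2 of 2 effectors and 2 of 4 guardians. The median log2 fold change, knockdown minus non-targeting, was -0.20 for BH3-only genes, -0.16 for effectors and -0.03 for guardians, beside -0.01 for all tested genes. These medians cover 4, 2 and 4 genes and do not rank the roles. The BH3-only median draws on BBC3 at -0.29, which was 0.03 without knockdown library 2. The guardian median covers MCL1, which at -0.17 equalled BAX. At an unadjusted p under 0.05 by limma there were 4 members (PMAIP1, MCL1, BAX and BAK1), where 17.2% of all genes were under it. The count of 7 fell to 4 when every library was scaled to the same total, a scaling under which the median of all genes moved from -0.01 to 0.05. That count was 6 with the same median and 5 with quantile normalization.

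**Figure D2:**
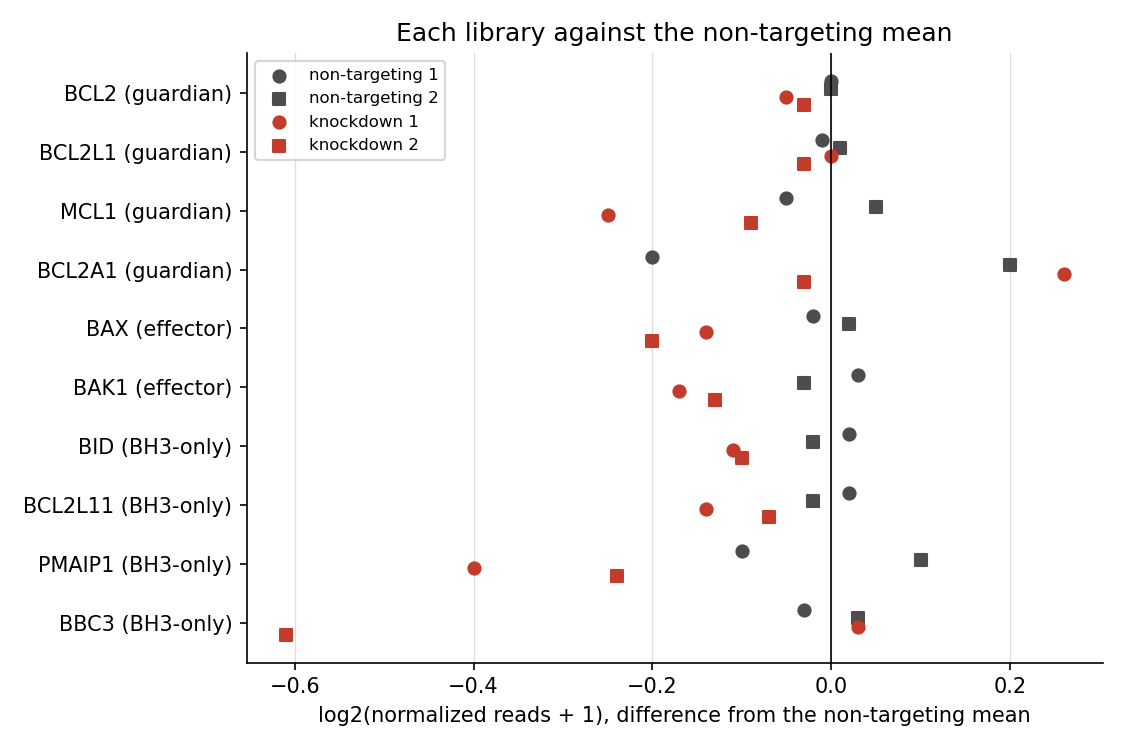
For each of the 10 genes, log2(normalized reads + 1) in each library minus the mean of the 2 non-targeting libraries (grey, non-targeting; red, knockdown). Both red points lie left of both grey points for 7 genes, and for BBC3 only knockdown library 2 stands apart.

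**Figure D3:**
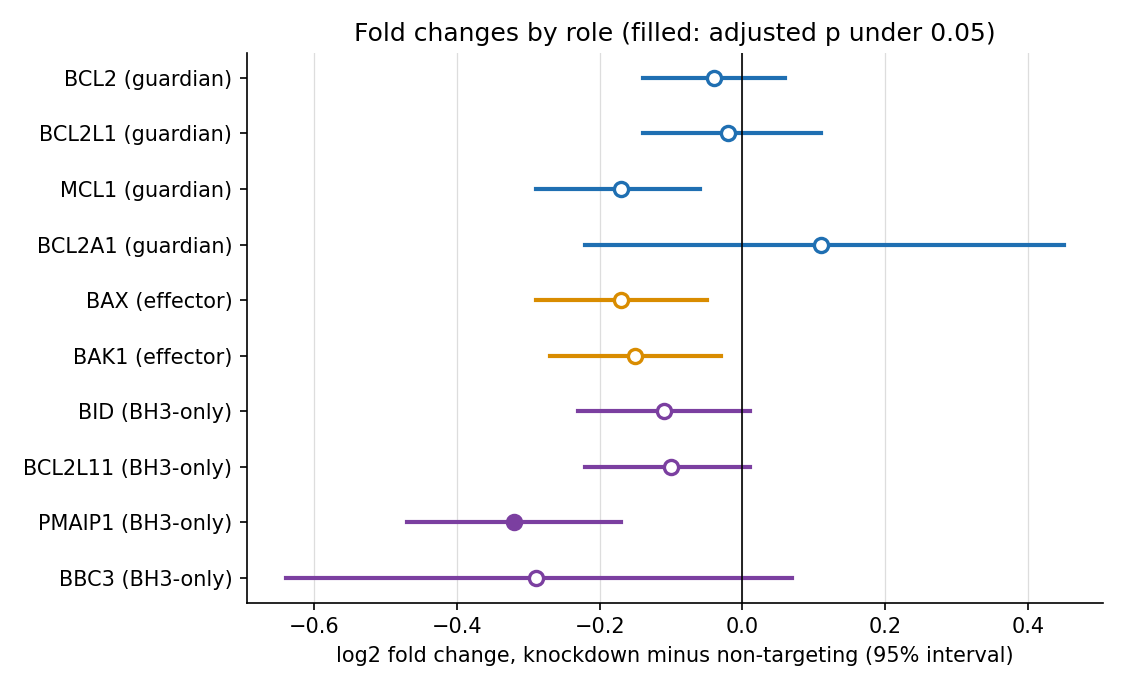
Log2 fold change of each gene with its 95% interval by limma, coloured by role (guardians, effectors, BH3-only genes). The PMAIP1 point alone is filled, for an adjusted p under 0.05, and the intervals of MCL1, BAX and BAK1 also lie below 0.

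Among BH3-only genes, PMAIP1 fell. PMAIP1 (ENSG00000141682, protein-coding, chromosome 18 from 59899948 to 59904306, plus strand, GENCODE 29 on GRCh38) encodes NOXA, which binds MCL1 and promotes its degradation. Non-targeting libraries held 2045 and 2357 normalized reads and knockdown libraries 1664 and 1853. Both knockdown libraries were low, and 192 reads separated the groups, less than the 311 between the non-targeting libraries. The mean went from 2201 ± 220 to 1759 ± 134 (SD, n = 2), and PMAIP1 fell by 0.32 on the log2 scale (SE 0.07; limma, adjusted p = 0.00952), with a 95% interval for the change of -27.9% to -11.3%. The fold change was also -0.32 with edgeR (adjusted p = 0.017) and DESeq2 (0.022) on the recovered reads, which called 2.87% and 1.96% of all genes lower. The call ended without non-targeting library 2, the higher of its group (-0.22, adjusted p = 0.215), with the same total (-0.26, 0.0672), with quantile normalization (-0.28, 0.0636) and in limma with no mean-variance trend (0.418), where no gene in the table passed.

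BBC3 (ENSG00000105327, chromosome 19 from 47220822 to 47232766, minus strand) encodes PUMA, which binds all main guardians. It was at 169 and 176 normalized reads in the non-targeting libraries and at 176 and 113 in the knockdown libraries. Knockdown library 1 matched the non-targeting level and library 2, with 99 reads, was low, so the groups overlapped. The log2 fold change of -0.29 ± 0.17 (SE; limma, adjusted p = 0.414) rested on that library: it was 0.03 without it and -0.61 (adjusted p = 0.0179) without knockdown library 1. The exact 95% Poisson interval of the low value, which covers counting error only, was 91.8 to 137.

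BCL2L11 and BID were each a little lower, without passing the test. BCL2L11 (ENSG00000153094, chromosome 2 from 111119378 to 111168447, plus strand) encodes BIM, a FOXO3 target that responds to loss of growth factor. It stood at 4042 and 3921 against 3606 and 3805 normalized reads (log2 fold change -0.10 ± 0.06 SE; limma, adjusted p = 0.351). The groups did not overlap, and the 117 reads between them were close to the 121 between the non-targeting libraries. BID (ENSG00000015475, chromosome 22 from 17734138 to 17774770, minus strand), which caspase-8 cleaves to link death receptors to mitochondria, stood at 2762 and 2693 against 2529 and 2539 (-0.11 ± 0.06 SE; limma, adjusted p = 0.36). Its knockdown values lay within 9.84 reads of each other and 155 below the nearer non-targeting value. BCL2L11 shares 727 bases of exon, 10.9% of its own, with MIR4435-2HG on the opposite strand, which had 2588 to 3185 reads per library. Without a stated strand setting, reads of that stretch could belong to either gene.

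The effectors BAX and BAK1 were both lower by similar amounts, and neither passed over all genes. BAX (ENSG00000087088, chromosome 19 from 48954815 to 48961798, plus strand), which moves from the cytosol to mitochondria when activated, had 2916 and 3002 normalized reads in the non-targeting libraries, and its knockdown values were 2693 and 2567. The groups were 223 reads apart, more than the 86.6 and 126 between libraries of 1 group. Its log2 fold change was -0.17 ± 0.06 (SE; limma, unadjusted p = 0.00762, adjusted p = 0.109), a change of -11.1% with a 95% interval of -18.2% to -3.4%. BAK1 (ENSG00000030110, chromosome 6 from 33572547 to 33580293, minus strand) encodes BAK, which resides in the outer membrane and is held there by MCL1 and the BCL2L1 product BCL-XL. It stood at 3469 and 3340 against 3026 and 3116, with 224 reads between the groups and 129 and 90.2 within them. Its log2 fold change was -0.15 ± 0.06 (limma, unadjusted p = 0.0148, adjusted p = 0.154). The adjusted p stayed over the threshold in all 16 alternatives, from 0.0514 to 0.481 for BAX and from 0.12 to 0.687 for BAK1.

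Among guardians, MCL1 was lower in both knockdown libraries, to different degrees, and BCL2 and BCL2L1 hardly moved. MCL1 (ENSG00000143384, chromosome 1 from 150574551 to 150579738, minus strand) encodes the guardian with the fastest protein turnover, which restrains BAK and binds NOXA and BIM. Its non-targeting values were 19050 and 20380 normalized reads and its knockdown values 16512 and 18483. Knockdown library 1 was clearly lower, whereas library 2 lay 567 reads under the nearer non-targeting value, with 1330 reads between the non-targeting libraries. The log2 fold change was -0.17 ± 0.06 (SE; limma, unadjusted p = 0.00468, adjusted p = 0.0814), a change of -11.3% with a 95% interval of -18.1% to -4.02%. It passed with robust empirical Bayes (adjusted p = 0.0402) and without knockdown library 2 (-0.25, adjusted p = 0.000252). It was -0.09 without knockdown library 1 (adjusted p = 0.41) and -0.12 without non-targeting library 2 (adjusted p = 0.531).

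BCL2 (ENSG00000171791, chromosome 18 from 63123346 to 63320128, minus strand), the target of venetoclax, stood at 16351 and 16309 against 15756 and 16024 normalized reads. The knockdown values were the lower ones, by 285 reads or more, yet the mean differed by -2.7% (limma, log2 fold change -0.04 ± 0.05 SE, adjusted p = 0.739), with a 95% interval of -9.13% to 4.19%. BCL2L1 (ENSG00000171552, chromosome 20 from 31664452 to 31723989, minus strand), which encodes BCL-XL, stood at 1973 and 2012 against 1988 and 1956. The groups overlapped, and the change was -1.05% (limma, adjusted p = 0.934), with a 95% interval of -9.33% to 8.0%. The sign of both genes turned with the scaling, to 0.02 and 0.04 with the same total. Of the exonic bases of BCL2L1, 43.0% are shared with the antisense RNA ABALON, which itself had 9 to 15 reads per library. Without a stated strand setting or counting tool, reads of that stretch could belong to either gene or be left uncounted. The level of BCL2L1 per kb carries that limit.

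BCL2A1 (ENSG00000140379, chromosome 15 from 79960889 to 79971446, minus strand) encodes A1, a guardian induced by NF-kB in myeloid cells. Its non-targeting values were 124 and 165 normalized reads and its knockdown values 171 and 140, from 123 to 178 reads before scaling. The lowest and highest values came from different groups and the groups overlapped. Its log2 fold change of 0.11 ± 0.16 (SE; limma, adjusted p = 0.783) had a 95% interval of -14.1% to 36.6% as a change and turned to -0.09 without non-targeting library 1 and to -0.03 without knockdown library 1.

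Since guardians and BH3-only proteins act by occupying each other, their RNA levels were also set against each other within each library, per kb of exon, a ratio that no library scaling factor alters. The guardians summed to 2.94 and 2.95 times the BH3-only genes in the non-targeting and to 3.07 and 3.14 times in the knockdown libraries. Both knockdown ratios were the higher ones, a difference of 0.08 on the log2 scale with a pooled SD of 0.02. In that BH3-only sum, PMAIP1 gave 915 and 1054 of 2197 and 2305 per kb in the non-targeting libraries. In the knockdown libraries it gave 744 and 829 of 1910 and 2007, so this shift is not separate from the fall of PMAIP1. MCL1 stood at 4.76 and 4.42 times PMAIP1 in the non-targeting and at 5.07 and 5.1 times in the knockdown libraries, a log2 difference of 0.15 (pooled SD 0.05). The 2 knockdown values of this ratio nearly coincided although MCL1 and PMAIP1 themselves differed between those libraries. BCL2 to BCL2L11 went from 2.29 and 2.35 to 2.47 and 2.38, and BCL2L1 to BCL2L11 from 0.981 and 1.03 to 1.11 and 1.03, with the nearest values of the groups almost touching. BCL2A1 to PMAIP1 went from 0.124 and 0.143 to 0.211 and 0.155, the widest shift (0.44 on the log2 scale, pooled SD 0.24), with few BCL2A1 reads behind it. That shift was 0.22 without knockdown library 1 and 0.66 without knockdown library 2.

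Ratios to the effectors did not separate the groups. Guardians stood at 2.4 and 2.55 times the effectors in the non-targeting and at 2.44 and 2.63 in the knockdown libraries, and BAX at 0.719 and 0.769 times BAK1 against 0.761 and 0.705. In both ratios the groups overlapped. Summed per kb, the log2 difference of guardians was -0.12 (from 6632 ± 247 to 6092 ± 308; SD, n = 2), that of effectors -0.16 (2683 ± 17.5 to 2405 ± 5.52) and that of BH3-only genes -0.20 (2251 ± 76.3 to 1959 ± 68.5). MCL1 made up most of the guardian sum. No p is given for these ratios and sums, because the members were chosen together and RNA ratios are not protein ratios.

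**Figure D4:**
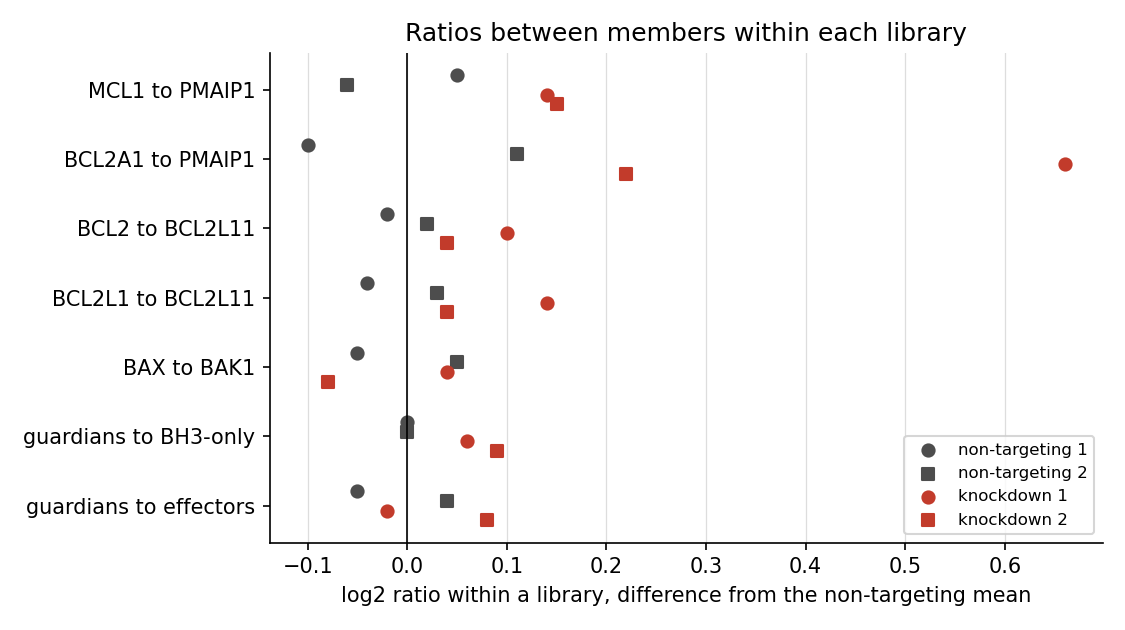
Log2 ratio between members within each library, minus the mean of the 2 non-targeting libraries (grey, non-targeting; red, knockdown). The red points overlap the grey ones for BAX to BAK1 and for guardians to effectors. In the other ratios they lie to the right, by 0.06 to 0.44 on average. All of those hold PMAIP1, BCL2L11 or both, so they are not separate results. The share of other gene pairs that separate this way was not computed.

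Of the wider pathway, 77 tested genes on 5 lists are reported, of which 4 fell and 0 rose, beside 3.4% and 0.851% of all tested genes. The number that fell was 2 with the same total, with quantile normalization and without non-targeting library 1, was 7 without either knockdown library, and was 0 with untrended empirical Bayes. None of 12 other BCL2 family genes tested passed by limma, 5 being under an unadjusted p of 0.05 as were 17.2% of all tested genes, and their median log2 fold change was -0.17. BNIP3, a hypoxia-induced mitophagy receptor, came closest, at 1787 and 1706 against 1484 and 1512 normalized reads (-0.22 ± 0.06 SE; limma, adjusted p = 0.0533), and passed with robust empirical Bayes (0.0344). Its relative BNIP3L was at -0.18 (adjusted p = 0.148) and the BH3-only gene BMF at -0.19 (0.233). HRK and BCL2L14 are not analysed here, and BCL2L10 was under the minimum mean of 10.

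Downstream of the mitochondrion, 0 of the 16 genes of the apoptosome, caspases and their inhibitors reported here passed by limma, with 2 under an unadjusted p of 0.05 and a median of -0.07, beside 17.2% and -0.01 for all tested genes, as for the next lists. CASP9, the initiator caspase of the apoptosome, stood at 472 and 466 against 392 and 419 normalized reads (-0.21 ± 0.10 SE; limma, adjusted p = 0.258). Its groups did not overlap. The inhibitors of apoptosis BIRC3, an NF-kB target, and XIAP, which blocks caspases directly, were at -0.25 (adjusted p = 0.263) and -0.11 (0.349). Of the outer membrane, calcium channel and fission genes 0 of 14 passed by limma and 1 was under an unadjusted p of 0.05, with a median of -0.01. The smallest p among them belonged to BCAP31 at -0.14 (adjusted p = 0.138), VDAC2, which recruits BAK, at -0.10 and ITPR2 at 0.06. Of the genes for MCL1 turnover and partners that tether BH3-only proteins 0 of 13 passed and 0 were under an unadjusted p of 0.05, with a median of 0.01. HUWE1, a ubiquitin ligase of MCL1, was at 0.06, as was DYNLL1, a dynein light chain that binds BIM, and the desumoylating peptidase DESI1 was at -0.08.

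Of 22 transcription factors reported here that are known to act on members, 4 fell and 0 rose, with a median of -0.11, beside 3.4% lower, 0.851% higher and a median of -0.01 for all tested genes. NFKB2 and RELB, the non-canonical NF-kB pair, fell by 0.61 and 0.52 on the log2 scale (limma, adjusted p = 2.45e-05 and 0.000147). NFKB2 stood at 1757 in each non-targeting library and at 1059 and 1250 in the knockdown libraries. The stress-induced factor ATF3, which has been tied to PMAIP1, stood at 446 and 431 against 305 and 351 (-0.42 ± 0.10 SE; adjusted p = 0.0203), and the AP-1 subunit JUN fell by 0.26 (adjusted p = 0.0154). The ATF3 call ended at folds of -0.40 and -0.44 without non-targeting library 1 or 2 (adjusted p = 0.155 and 0.0636), at -0.41 with DESeq2 (0.114) and at -0.32 without knockdown library 1 (0.0999). That of JUN ended at -0.19 without non-targeting library 1 (0.356). Both calls also ended with the same total (0.0731 and 0.083) and with quantile normalization (0.0579 and 0.0686). Named after their values were seen, ATF4 was at -0.14 (adjusted p = 0.123) and FOXO3 at 0.02 (0.923).

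**Figure D5:**
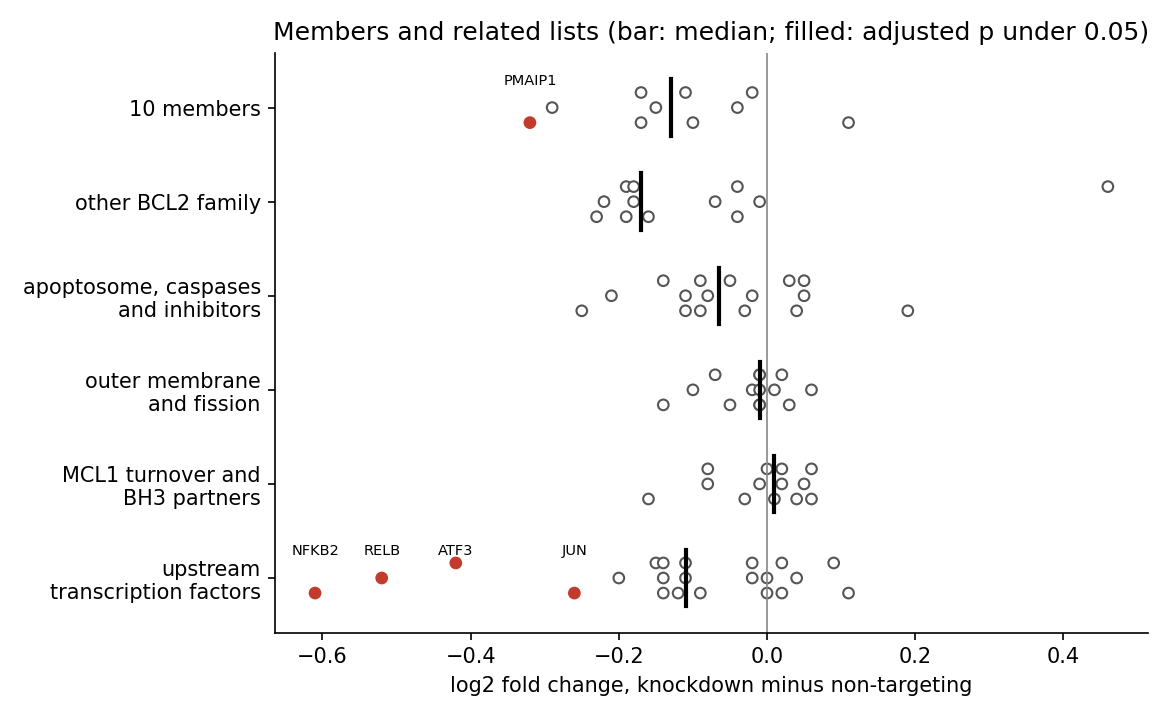
Log2 fold change of every tested gene of the 10 members and of 5 related lists (points, filled for an adjusted p under 0.05 by limma; bars, list medians). The filled points, PMAIP1, NFKB2, RELB, ATF3 and JUN, all lie below 0, and the outer membrane and turnover lists centre on 0.

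Over the 4 libraries, the genes whose differences from the non-targeting mean were closest to those of PMAIP1, among 13937 others with a symbol and a mean of at least 50, were ZNF257, SNAP91 and CXCL8, with root mean square distances of 0.0154, 0.0212 and 0.0254 on the log2 scale. CXCL8, a neutrophil chemokine, stood at 625 and 690 against 499.6 and 545 normalized reads and fell by 0.33 (limma, adjusted p = 0.0356). ZNF257 was at -0.31 (0.126) and SNAP91 at -0.35 (0.404). With 4 libraries such a likeness is a description only.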

How the data were processed

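RNA of 4 THP-1 samples, 2 per group, was extracted with an RNeasy Plus kit and made into NEBNext Ultra II libraries, per the labels' protocols. STAR 2.5.1b, DESeq2 (no version) and GRCh38 are named without a role per the submitters' processing notes; the strand setting, counting tool and annotation were not given in the sources used here. Each deposited value is a gene's normalized signal, its read count divided by the authors with 1 size factor per library. All values (100%) gave whole reads (largest distance from a whole read 0.000156). All 27106 genes have at least 2 reads in knockdown library 1, so any gene lost there is not analysed here. Replicate libraries differed beyond counting noise (chi-square per degree of freedom 4.47 and 4.95), so none was a copy. Labels do not say that libraries came from separate cultures, so p-values may reflect technical spread between these samples only.

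The main test was limma 3.58.1 (R 4.3.3; empirical Bayes with a trend) on log2(value + 1), for the 19398 genes whose mean reached 10, with p adjusted by Benjamini-Hochberg and called under 0.05. This scale understates changes of low genes. There were 16 alternatives: a minimum mean of 50 or none, pseudocounts of 0.5 and 5, 4 scalings, robust or untrended empirical Bayes, each library left out, and edgeR 4.0.16 and DESeq2 1.42.0 on recovered reads. Where 1 library was left out, the single library remaining in its group was taken to vary as the other group did. On simulated counts for 19149 genes 69.4% of 98 genes with a 1.5-fold change and 78.8% of 99 with a 2-fold change were recovered. Of 154 calls 8 (5.19%) were false. Each simulated gene was given the spread typical of its level. Smaller folds, such as those of all 10 members, were not simulated, so the recovered shares do not apply to them. Symbols matched 26579 identifiers. Members and lists were chosen with earlier results of these data known. Named were all 10 members, the target, from each list up to 5 genes past the threshold or else the 3 with the smallest p, and the 3 genes most like each called member. Some listed genes are not reported here and were left out of the list counts.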

Additional observations from a re-analysis of the deposited data

How the results depend on the processing

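No paired analysis was possible because the numbers on the knockdown columns match those of the labels only in part, so no replicate block was fitted. Over all genes, lower calls were 660 and higher calls 165. Lower calls were 293 with the same total, 334 with quantile normalization and 380 with DESeq2, and higher calls 291 with the same median and 67 with DESeq2. With each library left out they ran from 334 to 960 and from 87 to 309. Lower genes made up 80.0% of calls, and 55.5% with the same total, 69.1% with the same median and 70.2% with quantile normalization. Limma with no trend called 0 genes either way, although 2337 had an unadjusted p under 0.05 and edgeR called 556 lower and 159 higher. Called members numbered 1 lower and 0 higher. The lower count was 0 with the same total, quantile normalization and no trend (PMAIP1 lost), 2 with robust empirical Bayes (MCL1 added), and 0 to 2 with a library left out, and the higher count was 0 in all 16 alternatives. Members with knockdown values below non-targeting ones numbered 7, and 4 with the same total. They numbered 5 with quantile normalization, 6 with the same median and 7 to 9 with a library left out. Signs turned for BCL2 (0.02 with the same total and with quantile normalization), BCL2L1 (0.00 with the same median, 0.04 with the same total, 0.01 with quantile normalization), BCL2A1 (-0.09 to 0.32 with a library left out) and BBC3 (-0.61 to 0.03). The cause of these changes was not tested. With quantile normalization and with each library left out, the guardian to BH3-only ratio stayed higher in the knockdown, by 0.06 to 0.09. The other scalings use 1 factor per library and cannot alter it. Every setting kept PMAIP1 in the BH3-only sum, so this ratio is not a result apart from the fall of PMAIP1. BCL2A1 and BBC3, with 99 to 187 reads per library, carry counting intervals of about 14.6% to 20.2% on either side.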
